A study of Sus scrofa with 6 samples.

Results

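Ficolin-2 (FCN2) and 8 other genes of the complement system were followed in skeletal muscle of Tibetan pigs. Genes were chosen by symbol: FCN2, the C1q chains C1QA, C1QB and C1QC, the proteases C1R and C1S, and C3, C7 and CFD. Of these 9, 5 had a row among the 25322 genes of the table by their current Ensembl pig gene ID, namely FCN2 (ENSSSCG00000023333), C1QA (ENSSSCG00000003524), C3 (ENSSSCG00000013551), C7 (ENSSSCG00000016859) and CFD (ENSSSCG00000013418). C1QB, C1QC, C1R and C1S were not analysed here. FCN2 was chosen because its level was already known to differ between the groups in these libraries, so all differences between altitudes of the 5 genes are given as descriptions, and no test of them is read as a result.

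Complement is a cascade of plasma proteins that marks microbes and dying cells for removal. It is started in 3 ways: by ficolins and collectins that bind sugars and acetylated groups (the lectin pathway), by C1q on bound antibody (the classical pathway), and by spontaneous turnover of C3 with factors B and D (the alternative pathway). All of them cleave C3 and can end in the membrane attack complex, to which C7 belongs. The liver makes most circulating complement, whereas C1q comes largely from macrophages and factor D, also called adipsin, from adipocytes.

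The tissue was longissimus dorsi, the long back muscle, from 6 healthy female Tibetan pigs, 1 library per animal. The high altitude group was 3 pigs ranging freely at about 4000 m, and the low altitude group was 3 pigs fed daily under experimental conditions at about 500 m, from a line bred in the lowland for several generations. The age of the animals is not given in the labels. Altitude, feeding, housing and line history changed together and cannot be told apart. Levels are FPKM, fragments per kilobase of gene scaled to each library's mapped fragments, which allows genes to be compared per length. Absolute depth is unknown. Relative depth, read from the most common ratio between libraries of values above 0 and under 0.15 FPKM, ranged from 0.855 to 1.22. That reading takes the most common ratio to mark equal fragment counts, which was not tested. Muscle markers were high in all libraries, with the fast troponin TNNC2 between 11186 and 14823 FPKM. High altitude library 1 stood apart by its low matrix genes, with collagen COL3A1 at 37.9 FPKM against 345 to 568 in the other 5. Because these are bulk samples, fewer cells of a type and less RNA per cell cannot be told apart.

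FCN2, the ficolin that starts the lectin pathway, was low in muscle and lower still in the lowland pigs. It was at 3.23, 3.02 and 4.27 FPKM in the 3 high altitude libraries and at 0.832, 0.267 and 0.408 FPKM in the 3 low altitude libraries. Every high altitude library lay above every low altitude library, and the lowest of the former was 3.63 times the highest of the latter. The group means were 3.51 ± 0.673 (SD, n = 3) and 0.502 ± 0.294 FPKM, a ratio of 6.98. On the log2(FPKM + 1) scale, which understates differences of low genes, the low minus high difference was −1.59, and it was −1.63 without high altitude library 1. These values are those by which FCN2 was chosen. Its mean level over the 6 libraries exceeded that of 21.5% of the 10005 tested genes, those that reached 1 FPKM in 3 or more libraries, and FCN2 passed this filter only through the high altitude group. In the RefSeq gene table for Sscrofa11.1, FCN2 lies beside FCN1, a ficolin of related sequence. No row of the deposited table could be matched to FCN1, and the sources used here do not say how reads were divided between the ficolins, which leaves the level of FCN2 uncertain.

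**Figure D1:**
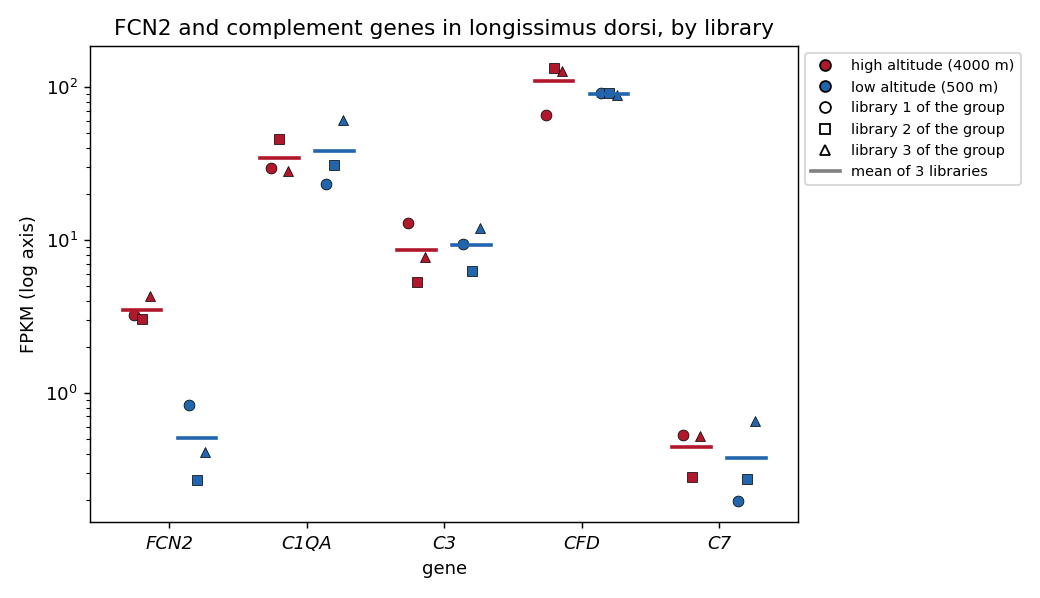
FPKM on a log axis of FCN2, C1QA, C3, CFD and C7 in each of 6 libraries, coloured by altitude group with a marker shape per library number and a bar at the mean of 3. FCN2 separates the groups (3.02 to 4.27 against 0.267 to 0.832 FPKM), whereas the groups overlap in C1QA, C3, CFD and C7.

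Of the other listed initiators and proteases of the lectin pathway, the 5 with a row were scarce. No row could be matched to FCN1, FCN3, MBL1 or COLEC12, so their levels are unknown. MASP1, a protease that rides on ficolins and collectins, was at 0.703, 0.560 and 0.606 FPKM in the highland pigs and 0.639, 0.522 and 0.510 FPKM in the lowland pigs, with overlapping groups. MASP2, the protease that cleaves C4 and C2, stayed between 0.0627 and 0.138 FPKM. Among the collectins, MBL2 was listed at 0 in 4 libraries and reached 0.136 FPKM, COLEC11 was listed at 0 in 4 and reached 0.0964 FPKM, and COLEC10 was listed at 0 in all 6. None of these 5 genes reached an FPKM of 1 in any library. FCN2 exceeded the 3 collectins in every library, while MASP1 exceeded FCN2 in low altitude libraries 2 and 3. A listed 0 need not mean absence, since 107 genes were listed at 0 in 1 library or more and at 5 FPKM or above in another.

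FCN2 is known in humans as a product of the liver, and hepatocyte markers were read beside it. ALB, the plasma albumin, was at 0.535, 9.46 and 12.5 FPKM in the high altitude libraries and at 0.446, 1.37 and 1.19 FPKM in the low altitude libraries. In high altitude library 1, ALB lay within the low altitude range, and FCN2, at 3.23 FPKM, within the range of the other high altitude libraries. Any part of hepatocyte RNA in the level of FCN2 was not tested. AHSG, another liver plasma protein, followed ALB, with 0.0746, 0.726 and 1.66 FPKM at high and 0.0427, 0.206 and 0.328 FPKM at low altitude. TTR, the thyroid hormone carrier transthyretin, separated the groups as FCN2 did, at 0.719, 0.829 and 2.49 FPKM against 0 (as listed), 0.116 and 0.266 FPKM. APOA1, the main protein of high-density lipoprotein, did not, at 5.51, 23.9 and 15.4 FPKM against 14.5, 15.5 and 15.5 FPKM. FGB, the beta chain of fibrinogen and a defining liver transcript, was listed at 0 in 4 libraries and reached 0.0534 FPKM. Of the 7 hepatocyte markers, 5 had a row, and their FPKM summed to 6.84, 35.0 and 32.1 in the highland pigs and to 15.0, 17.2 and 17.3 in the lowland pigs. Of the 2 that entered the test between altitudes, ALB had a log2 difference of −1.62 (limma, Benjamini-Hochberg adjusted p = 0.572) and APOA1 of 0.22 (adjusted p = 0.917), and neither passed. Without high altitude library 1, ALB passed the threshold with a difference of −2.60 (limma, Benjamini-Hochberg adjusted p = 0.0291). That library held the lowest ALB of the high altitude group, and ALB passed under no other alternative.

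**Figure D2:**
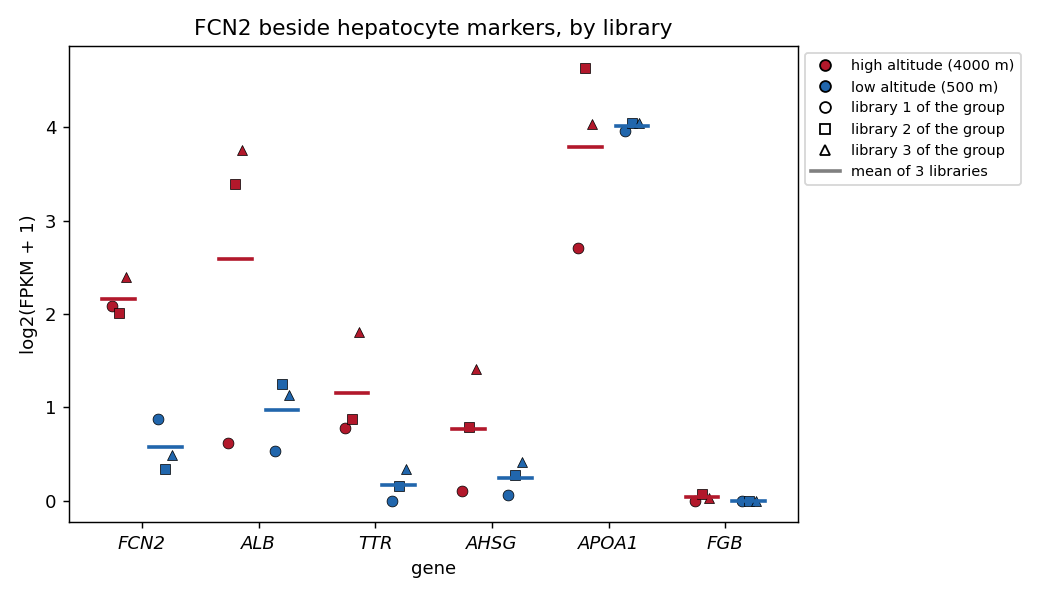
Levels as log2(FPKM + 1) of FCN2 and the 5 hepatocyte markers with a row, by library, with a bar at the mean of 3. High altitude library 1 (circle) has FCN2 at 3.23 FPKM, and ALB at 0.535 and AHSG at 0.0746 FPKM, the level of the low altitude libraries. TTR, at 0.719 FPKM in that library, lies above the low altitude libraries, and APOA1, at 5.51 FPKM, below them.

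Recognition by the classical pathway was represented by C1QA, the A chain of C1q, which was expressed at a far higher level per length than FCN2. It was at 29.7, 45.8 and 28.4 FPKM at high and 23.4, 30.9 and 60.8 FPKM at low altitude. Low altitude libraries 1 and 3 held the lowest and the highest of the 6 values, so the groups overlapped fully. The means were 34.6 ± 9.68 (SD, n = 3) and 38.4 ± 19.8 FPKM, and C1QA ranked above 90.0% of tested genes. The log2 difference of 0.06 turned to −0.32 when low altitude library 3 was left out, and to −0.03 or −0.06 when high altitude library 1 or 3 was.

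C1QA varied between libraries along with some, but not all, markers of several blood-derived cells. Of 8 tested macrophage markers, 6 had their highest level in low altitude library 3, as C1QA did, where 16.0% of all tested genes had theirs. MRC1, the mannose receptor of macrophages, was at 2.75, 3.05 and 4.17 FPKM at high and 2.67, 2.44 and 5.95 FPKM at low altitude. FCER1G, a signalling chain of myeloid receptors, ranged from 11.2 to 13.5 and from 10.4 to 19.2 FPKM. TYROBP, an adaptor of myeloid receptors and the most abundant marker of the list, was highest in high altitude library 2 at 19.9 FPKM. The 10 macrophage markers with a row summed to between 46.5 and 50.0 FPKM in the highland and between 33.2 and 62.3 FPKM in the lowland pigs, and of the 8 tested 0 passed limma with Benjamini-Hochberg adjustment, with 1, or 12.5%, at an unadjusted p under 0.05 beside 9.42% of all tested genes. Macrophage markers were not the only ones to peak in low altitude library 3. The T cell marker CD2 was at 1.96, 2.19 and 1.74 FPKM at high and 0.971, 1.06 and 3.85 FPKM at low altitude. Its r with C1QA over the 6 libraries, on log2(FPKM + 1), was 0.887. The r was 0.807 for the macrophage marker CD68 and 0.705 for CD8A of cytotoxic T cells. Lower values were those of TYROBP (0.542), the macrophage marker SPI1 (0.300) and the T cell marker CD3D (0.135). These depended on the measure. With deviations from the group means, which leave out the difference between altitudes, r was 0.888 for TYROBP, 0.481 for SPI1 and 0.551 for CD3D. It was then 0.910 for CD2, 0.891 for CD8A and 0.806 for CD68. SPI1 was highest in high altitude library 1, at 6.79 FPKM. CD8A and all 4 neutrophil markers with a row, each below the filter, also peaked in low altitude library 3. The part of these cells in the level of C1QA was not tested.

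C3, the protein on which the pathways converge, was at 12.9, 5.29 and 7.75 FPKM at high and 9.46, 6.22 and 12.03 FPKM at low altitude. Its highest values came from 1 library of each group, high altitude library 1 and low altitude library 3. The means of 8.64 ± 3.88 (SD, n = 3) and 9.24 ± 2.91 FPKM differed by a ratio of 1.07, far less than the 2.44-fold range within the high altitude group. The log2 difference of C3 was 0.12, and it turned to −0.15 or −0.07 when high altitude library 2 or low altitude library 3 was left out.

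C2 and C4A, which together form the C3-cleaving enzyme of the classical and lectin pathways, peaked in the same pair of libraries as C3. C2 was at 4.91, 2.51 and 2.21 FPKM at high and 1.60, 2.29 and 8.90 FPKM at low altitude. C4A was at 7.66, 4.52 and 4.21 FPKM and 2.83, 4.85 and 13.0 FPKM. The 2 genes kept close proportion, with C4A at 1.46 to 2.12 times C2, although C2 varied 5.57-fold and C4A 4.59-fold over the 6 libraries. C3 did not hold such a proportion to C2, ranging from 1.35 to 5.92 times its level. In the RefSeq gene table for Sscrofa11.1, C4A lies between STK19 and CYP21A2, with no second C4 gene beside it. Whether its reads were shared with another C4 copy was not tested.

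CFD, the protease factor D that cuts factor B in the alternative pathway, was the most abundant of the 5 genes in every library. It was at 66.1, 134 and 127 FPKM at high and 92.1, 91.0 and 88.4 FPKM at low altitude. The lowland pigs varied by a ratio of only 1.04 from lowest to highest, whereas the highland pigs varied 2.03-fold, with high altitude library 1 lowest. The means were 109 ± 37.4 (SD, n = 3) and 90.5 ± 1.91 FPKM, and CFD ranked above 96.1% of tested genes. The log2 difference of −0.20 became −0.52 without high altitude library 1, when the groups no longer overlapped, and −0.02 without high altitude library 2.

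Adipocyte markers were lowest in the library with the lowest CFD, but varied among the lowland pigs, in which CFD did not. That library, high altitude library 1, was not lowest for adipocyte markers alone. It was also lowest for 4 of 6 fibroblast and 4 of 5 smooth muscle markers with a row, and for 2 of 10 macrophage markers. PLIN1, which coats the fat droplet of adipocytes, was at 1.90, 4.96 and 11.2 FPKM at high and 2.08, 3.91 and 5.66 FPKM at low altitude. CIDEC, which fuses fat droplets, was at 1.98, 8.55 and 10.8 FPKM and 2.44, 5.28 and 6.73 FPKM. In the low altitude group PLIN1 varied 2.72-fold and CIDEC 2.76-fold between libraries in which CFD was nearly constant. These were the 2 of 6 listed adipocyte markers with a row, and neither passed between altitudes (limma, Benjamini-Hochberg adjusted p = 0.875 and 0.887).

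The partners of CFD in the alternative pathway were much lower. CFB, the factor B that CFD cleaves, stayed between 0.0280 and 0.623 FPKM, and was highest in high altitude library 3. CFP, or properdin, which stabilises the alternative C3-cleaving enzyme and is made by myeloid cells, was at 2.70, 1.71 and 2.81 FPKM at high and 1.03, 1.95 and 4.61 FPKM at low altitude. Like C1QA, C2 and C4A, CFP had its lowest value in low altitude library 1 and its highest in low altitude library 3.

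**Figure D3:**
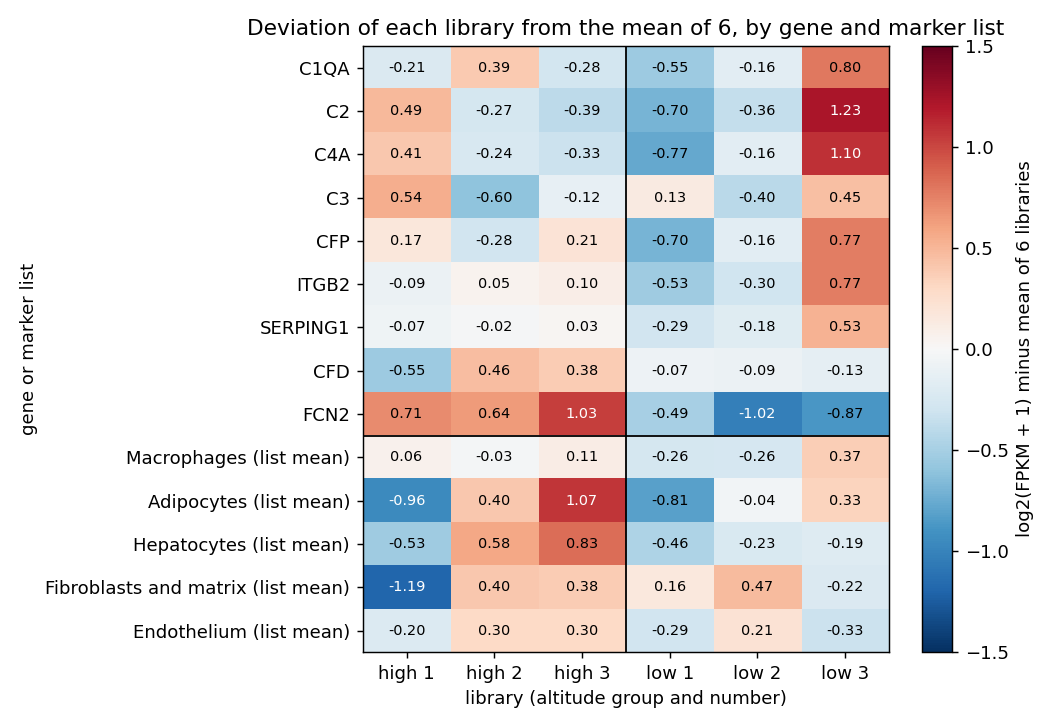
Deviation of log2(FPKM + 1) from the mean of the 6 libraries for 9 complement genes and for the mean of 5 marker lists, with red above and blue below the mean. Low altitude library 3 is highest for C1QA (0.80), C2 (1.23), C4A (1.10) and the macrophage list (0.37), whereas FCN2 separates the first 3 columns from the last 3.

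C7, a component of the membrane attack complex, was near the floor of the table. It was at 0.528, 0.281 and 0.519 FPKM at high and 0.197, 0.274 and 0.653 FPKM at low altitude. The groups overlapped, with means of 0.442 ± 0.140 (SD, n = 3) and 0.375 ± 0.244 FPKM, and C7 was below the filter for testing. Its log2 difference of −0.08 was 0.01 without low altitude library 1. Other components of that complex were as low. C6, C8A and C8B reached at most 0.0197, 0.0977 and 0.0472 FPKM, C9 reached 0.703 FPKM, and C8G reached 1.33 FPKM in high altitude library 2. C5, whose cleavage opens the terminal pathway, was at 0.0232, 0.0402 and 0.172 FPKM at high altitude. At low altitude it was at 0 (as listed), 0.00899 and 0 (as listed) FPKM. Its groups did not overlap, but all these values were near the floor and below the filter.

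In order of mean level per length the genes ran CFD, C1QA, C3, FCN2 and C7. CFD exceeded C1QA by 1.45 to 4.47 times and C1QA exceeded C3 by 2.31 to 8.66 times, so that the first 3 places were the same in every library. The order of the last 2 depended on the library. FCN2 was 6.12 to 10.8 times C7 at high altitude and 4.22 times C7 in low altitude library 1, but 0.976 and 0.624 times C7 in low altitude libraries 2 and 3. At low altitude FCN2 and C7 thus did not differ beyond their spread.

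Of the 6 soluble regulators with a row, SERPING1 and CLU were abundant and tested, and neither passed between altitudes. SERPING1, the inhibitor of C1r, C1s and the MASP proteases, was at 55.7, 57.5 and 59.7 FPKM at high and 47.5, 51.3 and 84.4 FPKM at low altitude, with low altitude library 3 again highest. Its log2 difference was 0.03 (95% interval −0.50 to 0.57, limma, Benjamini-Hochberg adjusted p = 0.978). CLU, clusterin, which blocks assembly of the attack complex, was at 23.2, 25.3 and 36.1 FPKM and 12.5, 19.7 and 32.4 FPKM. Clusterin had the lowest estimate among the other complement genes, −0.44 (95% interval −1.24 to 0.35, limma, Benjamini-Hochberg adjusted p = 0.718). CFI, the protease that inactivates C3b and C4b, was between 0.585 and 1.87 FPKM. C4BPA, C4BPB and VTN averaged 0.0994, 0.0613 and 0.0640 FPKM over the 6 libraries. The membrane regulators CD46, CD55 and CD59 were not analysed here.

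Receptors for complement fragments did not separate the groups either. C3AR1, the receptor for C3a, was at 2.53, 2.27 and 2.79 FPKM at high and 2.80, 2.60 and 4.54 FPKM at low altitude. It had the highest estimate among the other complement genes, a log2 difference of 0.26 (95% interval −0.18 to 0.71, limma, Benjamini-Hochberg adjusted p = 0.704). ITGB2, the beta chain of complement receptors 3 and 4, was at 3.02, 3.43 and 3.59 FPKM and 1.97, 2.49 and 6.31 FPKM, with low altitude library 3 highest. ITGAM, the alpha chain of complement receptor 3, stayed between 0.611 and 1.44 FPKM. CD93, once described as a C1q receptor and found on endothelium, ran the other way, with 4.08 FPKM in high altitude library 1 and 3.61 FPKM in low altitude library 3 as its lowest values and 6.23 to 10.9 FPKM in the other 4. CALR, calreticulin, a chaperone that also binds C1q, was at 31.6 to 58.3 FPKM at high and 39.2 to 53.5 FPKM at low altitude.

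Across the table, 23 of 10005 tested genes passed between altitudes at an adjusted p under 0.05 (limma, Benjamini-Hochberg), which is 0.230%. Of all tested genes, 16 or 0.160% were higher and 7 or 0.0700% were lower at low altitude. FCN2 is 1 of these 7, and since it was chosen for this difference nothing is read from that. It was among the calls in 0 of the 6 fits that left out 1 library. Of the 41 other complement genes listed, 27 had a row and 9 were tested, and 0 of these 9 passed in limma. At an unadjusted p under 0.05 there were 0 of the 9 and 942 of all tested genes, or 9.42%. Their estimates were above 0 in 5 and below 0 in 4, from −0.44 to 0.26, with a median of 0.03 beside 0.04 for all tested genes. Intervals of single genes were wide, the widest being −1.06 to 1.30 for C2, so a 2-fold difference of some of them was not detectable with 3 animals per group. In 0 of the 9 were the groups apart without overlap, as they were in 16.1% of all tested genes, 4.80% lower and 11.3% higher at low altitude.

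**Figure D4:**
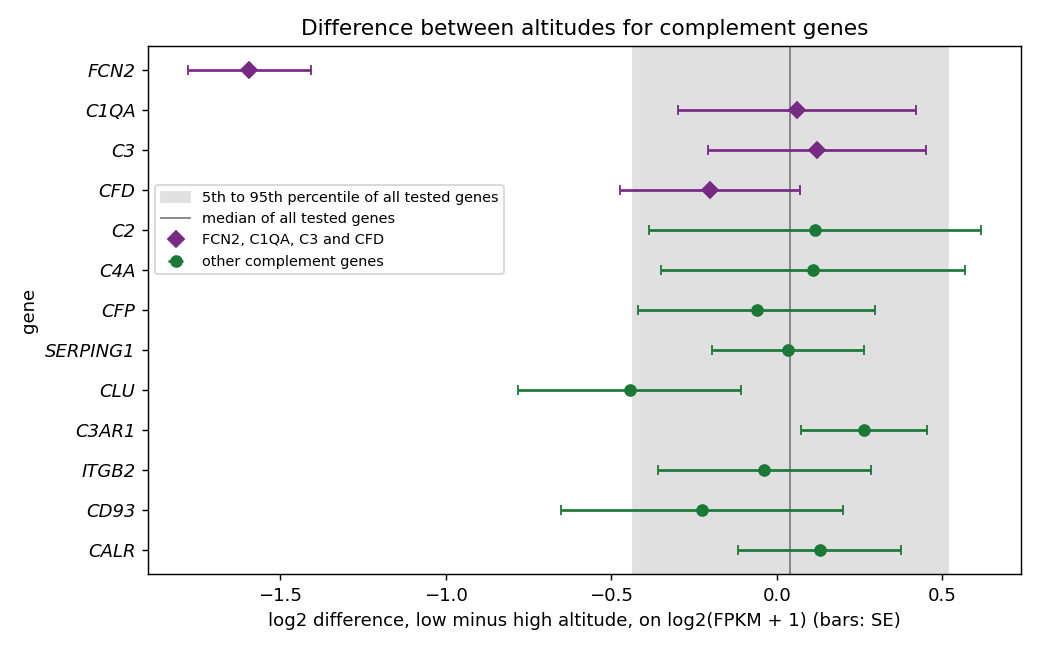
Log2 difference, low minus high altitude, with its SE from limma, a measure of the precision of the estimate. Shown are the 4 tested members (diamonds) and the 9 other tested complement genes (circles). Grey marks the 5th to 95th percentile of all tested genes (−0.43 to 0.52). FCN2 lies at −1.59, and the other 12 estimates lie between −0.44 and 0.26.

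No tested marker passed between altitudes. Over the marker lists 36 genes were tested, 3 of muscle, 8 of macrophages, 3 of lymphocytes, 6 of fibroblasts, 2 of adipocytes, 4 of endothelium, 2 of hepatocytes, 1 of erythroid cells, 5 of smooth muscle and 2 of the acute phase. In limma with Benjamini-Hochberg adjustment 0 passed, and 3 of the 36, or 8.33%, had an unadjusted p under 0.05, beside 9.42% of all tested genes. These 3, given as values only, were the T cell marker CD3D (2.04, 2.82 and 1.87 FPKM at high, 0.991, 1.07 and 1.07 FPKM at low altitude), the endothelial receptor KDR (5.74, 7.69 and 7.22 against 1.90, 4.75 and 1.97 FPKM) and TYROBP. CD3D and KDR separated the groups in the same direction as FCN2, as did 4.80% of all tested genes. The part of CD3D and KDR in the level of FCN2 was not tested. The groups overlapped in the other tested lymphocyte markers, CD2 and CD8A, and in the endothelial markers PECAM1, TEK and TIE1. In the other direction, CD14 of macrophages was at 2.65 to 3.03 FPKM at high and 3.15 to 5.31 FPKM at low altitude. TAGLN of smooth muscle was at 39.5 to 43.6 FPKM at high and 48.4 to 54.5 FPKM at low altitude. Both separated the groups, as did 11.3% of all tested genes in that direction. S100A8, a neutrophil protein below the filter, did so too, at 0.139 to 0.510 FPKM at high and 0.803 to 1.97 FPKM at low altitude. ELANE, another neutrophil marker below the filter, was listed at 0 throughout at high and reached 0.0967 to 0.337 FPKM at low altitude. MARCO of macrophages, also below the filter, went the opposite way from CD14. It was at 0.116 to 0.441 FPKM at high and 0.0660 to 0.0743 FPKM at low altitude, without overlap. Genes of the acute phase, in which the liver raises complement output, were low or overlapped. IL6 was listed at 0 in all libraries, CRP and LBP reached at most 0.129 and 0.0598 FPKM, and STAT3, which carries the IL6 signal, was at 9.71 to 17.1 FPKM at high and 14.4 to 21.7 FPKM at low altitude.

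The genes whose pattern over the 6 libraries was most like that of FCN2 were SNAPC3, ATXN7L2, SMAD6, TRPM7 and NME3, with Pearson's r of log2(FPKM + 1) from 0.954 to 0.987 among 6625 genes with a symbol. Each was higher in the high altitude libraries, for example ATXN7L2 at 4.33 ± 0.0719 (SD, n = 3) against 2.69 ± 0.0627 FPKM and SMAD6, an inhibitor of bone morphogenetic protein signalling, at 1.38 ± 0.294 against 0.630 ± 0.202 FPKM. Their direction follows from choosing them by likeness to FCN2, which separated the groups. The values describe 6 points per gene from the same libraries. Only SMAD6 was also among the 5 most alike when deviations from the group means were used (r = 0.980). Those most like C1QA were DHX32, NFKBIE, BCL7C, HERPUD2 and ARFIP2 (r from 0.962 to 0.978), and DHX32 was the 1 gene also found with deviations (r = 0.987).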

How the data were processed

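RNA from longissimus dorsi of 6 pigs was sequenced, 3 per altitude, from strand-specific dUTP libraries, per the labels' protocols. The authors deposited FPKM for 25322 Ensembl gene IDs. TopHat2 2.0.11 and Cufflinks 2.2.1 are named, with no role, per the submitters' processing notes. Neither a build, an annotation nor a filter is named in those sources, and coordinates are left out. Columns were matched to animals by title, and 11804 IDs matched a symbol.

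Values were used as log2(FPKM + 1). Genes at 1 FPKM or more in at least 3 libraries were tested with limma 3.58.1 (R 4.3.3, trend, two-sided, Benjamini-Hochberg over 10005 genes, threshold 0.05). Without counts, neither a count model nor a counting interval was used. The fit was tested on simulated data with changes larger than the log2 difference of FCN2 in the main fit, so smaller changes were not covered. Alternatives were other pseudocounts, filters, scalings and limma options, the replicate block and leaving out each library. Figures used matplotlib 3.10.9.

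The genes and lists were chosen with earlier results of these data known. Named were the 9 chosen genes, per complement role the 3 tested genes with the highest mean FPKM, per marker list up to 3, and the 5 genes most alike. Others named (among them lectin pathway and terminal components, CFB, CFI, C3AR1, ITGAM, AHSG, TTR, FGB, S100A8, IL6, CRP, LBP, C4BPA, C4BPB and VTN) were taken from the same lists after their values were seen. The marker lists covered muscle, macrophages, neutrophils, lymphocytes, fibroblasts, adipocytes, endothelium, hepatocytes, erythroid cells, smooth muscle and acute phase genes.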

Additional observations from a re-analysis of the deposited data

How the results depend on the processing

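FCN2 was lower at low altitude under all 16 alternatives, with a log2 difference between −2.68 (pseudocount 0.1) and −1.47 (without high altitude library 3). Because FCN2 was chosen for this difference, counts of its calls test nothing and only describe the settings. The number of the chosen genes past the threshold was 0 with a pseudocount of 0.1, 0 with no filter, 0 with a mean FPKM of at least 5, where FCN2 was not tested, 0 with the replicate block, and 0 to 0 when each of the 6 libraries was left out in turn. The number among all tested genes was 6 with no filter, 38 with array weights, 10 after quantile normalization and 9 after median-of-ratios scaling, and 4 to 21 without 1 library. With a common total it was 26 higher and 6 lower, against 16 and 7. Of the 9 other complement genes 0 passed under each alternative. With the replicate block 19 genes passed. The shared numbers do not mark a common litter or day in the labels, and deviations of same-numbered libraries correlated at −0.0154, 0.0949 and −0.141. With 3 animals per group and depth unknown, differences of genes near C7's level were not detectable.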
